A study of Mus musculus with 4 samples.

Results

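The 7 genes described are Nkg7, Prf1, Gzma, Gzmb, Gzmk, Ctsw and Fasl, taken by symbol from the single-cell count matrices of hepatic CD4+ T cells, where they are 7 of the 32285 genes counted. They were followed over cell classes gated on marker genes, with Foxp3+ cells and plasmacytoid dendritic cells (pDCs) included, and over clone size. The cells came from male mice of 2 genotypes, WT and Nr4a1 fl/fl Nr4a2 fl/fl Cd4Cre (dKO), both fed a choline-deficient, high-fat diet (CD) with 60 kcal% fat and 0.1% methionine, a model of metabolic dysfunction-associated steatohepatitis (MASH). Cd4Cre removes floxed sequence in every cell that passes through a Cd4-expressing stage, which includes CD8+ T cells and regulatory T cells (Tregs). Mice of a genotype were pooled into 1 library with its T cell receptor (TCR) sequences, so a difference between genotypes has no replicate check and no test was made. Values are unique molecular identifiers (UMIs) summed over a class and divided by that class's total, as counts per 1000000 UMIs (CPM), and the 95% intervals that follow them in parentheses cover counting error only. Where 2 values stand together without a library's name, the library labelled WT comes first.

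Cytotoxic lymphocytes kill by granule release, in which perforin (Prf1) opens the target membrane and granzymes, serine proteases with different substrates, enter and cleave proteins of the target cell. Nkg7 is a granule membrane protein needed for efficient degranulation, Ctsw (cathepsin W) is a papain-like protease of cytotoxic lymphocytes, and Fasl is a membrane ligand that starts apoptosis through the receptor Fas. CD4+ T cells are mostly helpers, but some acquire this programme, and Tregs are known to use granzyme B against other immune cells.

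The genes lie on several chromosomes of GRCm38. Gzma (ENSMUSG00000023132, chr13:113093825-113100981) and Gzmk (ENSMUSG00000042385, chr13:113171608-113225908) are neighbours on the minus strand. Gzmb (ENSMUSG00000015437) lies at chr14:56258838-56262260 on the minus strand, beside other granzyme genes such as Gzmc, and reads shared among these paralogs were not examined. Nkg7 (ENSMUSG00000004612) lies at chr7:43437073-43438249, Prf1 (ENSMUSG00000037202) at chr10:61297833-61304680, Fasl (ENSMUSG00000000817) at chr1:161780689-161788495 and Ctsw (ENSMUSG00000024910) at chr19:5465043-5468507. The promoters of the 3 granzymes are shown because these genes had different class patterns. Each runs 5′ to 3′ from 250 bases before to 50 bases after the RefSeq gene start (GRCm38.p6, minus strand), Gzmb at chr14:56262285-56262584, Gzma at chr13:113100932-113101231 and Gzmk at chr13:113180916-113181215. The Gzmk promoter lies inside the gene span given above, so the RefSeq start differs from that of the span. Capitals mark matches to the letters searched on both strands:
Gzmb: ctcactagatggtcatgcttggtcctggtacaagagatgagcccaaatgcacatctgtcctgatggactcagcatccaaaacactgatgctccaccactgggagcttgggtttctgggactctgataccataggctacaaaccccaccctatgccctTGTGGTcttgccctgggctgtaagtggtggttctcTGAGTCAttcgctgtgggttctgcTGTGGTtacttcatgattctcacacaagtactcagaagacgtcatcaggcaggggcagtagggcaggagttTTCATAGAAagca
Gzma: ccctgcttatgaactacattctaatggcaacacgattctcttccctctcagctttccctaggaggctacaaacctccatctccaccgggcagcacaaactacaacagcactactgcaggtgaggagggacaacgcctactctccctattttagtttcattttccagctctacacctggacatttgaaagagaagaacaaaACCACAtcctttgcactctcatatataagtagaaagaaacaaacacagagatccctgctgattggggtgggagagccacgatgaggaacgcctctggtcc
Gzmk: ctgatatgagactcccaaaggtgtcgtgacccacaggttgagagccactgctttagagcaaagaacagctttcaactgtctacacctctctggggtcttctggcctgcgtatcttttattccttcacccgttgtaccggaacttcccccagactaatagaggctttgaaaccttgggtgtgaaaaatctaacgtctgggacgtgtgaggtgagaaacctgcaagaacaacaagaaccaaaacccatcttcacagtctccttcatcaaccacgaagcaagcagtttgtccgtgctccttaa
The RUNX letters TGTGGT were in 4 of the 6 promoters at hand, those of Nkg7, Prf1, Gzma and Gzmb, against 16.8% of all 32851 promoters of this length. The AP-1 letters TGANTCA were in the Gzmb promoter alone of the 6 (7.81% of all), the STAT letters TTCNNNGAA in those of Nkg7 and Gzmb (8.30% of all), and the Nr4a response element AAAGGTCA in none of the 6 (1.51% of all). The Gzmk promoter held none of these letters. In Gzmb, AP-1 and RUNX matches overlapped no other match, the AP-1 match starting at −58 and the first RUNX match at −93 from the gene start. These are matches of letters, not measured binding.

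After quality filters the WT-labelled library held 10556 cells and 23437516 UMIs (median 1679 per cell), and the dKO-labelled library 17462 cells and 37794986 UMIs (median 1685). Over all kept cells the targeted genes went against the labels, with Nr4a1 at 725 CPM (714 to 736) in the WT-labelled library and 1659 CPM (1646 to 1672) in the dKO-labelled library, and Nr4a2 at 183 CPM (178 to 189) and 306 CPM (300.2 to 311). In the T cell classes defined next, Nr4a1 was at 712 and 1756 CPM in conventional and 961 and 2199 CPM in Foxp3+ cells. Nr4a2 was at 209 and 454 CPM and at 162 and 416 CPM. Counts per gene cannot show whether the floxed exons are missing, so these values do not tell whether a label is right. Conventional T cells were T lineage cells with no Foxp3 or Cd8b1 UMI and no invariant NKT (iNKT) receptor. They stayed under the gates of the other lineages, 2 Siglech, 4 myeloid or 3 B cell UMIs. Foxp3+ cells were defined alike but with a Foxp3 UMI. Conventional T cells were 6523 (61.8%) and 7960 (45.6%) cells, Foxp3+ cells 456 (4.32%) and 3117 (17.9%), and pDCs 1035 (9.80%) and 3085 (17.7%), WT given first. The conventional class of the dKO-labelled library carried more of the Treg markers, with an Ikzf2 UMI in 13.5% and 44.0% of conventional cells and a Ctla4 UMI in 30.4% and 63.6%. In myeloid cells these shares were 4.26% and 8.92% for Ikzf2 and 3.72% and 10.4% for Ctla4. Leaving out the conventional cells with an Ikzf2 or Ctla4 UMI moved 26 and reversed 1 of 56 values for that class. The values without these cells are given below for the main results. Ctla4 and Ikzf2 are not limited to Tregs. In a clone of 25 cells of the dKO-labelled library with 0 Foxp3 UMIs, Ctla4 was found in 19 cells and Ikzf2 in 5. Leaving out such cells can thus remove other conventional cells too. The 2 libraries share 245 cell barcodes.

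Nkg7 was high in T, NK-like and iNKT cells and low in pDCs (19.9 and 5.51 CPM), myeloid cells (31.9 and 14.3 CPM) and ILC3-like cells (30.05 and 29.1 CPM). In NK-like cells it stood at 1626 CPM (1416 to 1859) in the WT-labelled library and 2580 CPM (2072 to 3175) in the dKO-labelled library, and in iNKT cells, the T cells with an invariant receptor for lipids, at 891 CPM (740.1 to 1064) and 1367 CPM (1175 to 1582). Conventional T cells had 516 CPM (504 to 528) and 977 CPM (960 to 994), and Foxp3+ cells 257 CPM (231 to 285) and 618 CPM (599 to 637). Among these 4 classes the order was NK-like, iNKT, conventional, Foxp3+ in both libraries, with no overlap of neighbouring intervals. Within conventional cells, those with an Ifng but no Il17 UMI were highest, at 713 and 1657 CPM, and those with Il17 transcripts (141 and 249 CPM) and the naive-like cells (146 and 333 CPM) lowest.

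Prf1 was scarce outside the NK-like cells. There it stood at 174 CPM (110.3 to 261) in the WT-labelled library, whereas the 16 NK-like cells of the dKO-labelled library held only 2 UMIs. In conventional T cells it was at 10.7 CPM (9.08 to 12.5) and 15.4 CPM (13.4 to 17.7), and in Foxp3+ cells at 3.65 CPM (1.18 to 8.51) and 11.7 CPM (9.26 to 14.6). Within conventional cells, the naive-like ones had 21.3 and 21.5 CPM and those with Ifng alone 12.5 and 23.3 CPM. Cycling cells had 0.990 and 3.71 CPM, and the others 6.81 and 16.3 CPM. Cells with Il17 alone held 3 and 0 UMIs. A Prf1 UMI was seen in 1.05% and 1.45% of conventional cells thinned to 1000 UMIs, beside 0 and 0.410% of myeloid cells, which should lack the gene.

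The 3 granzymes differed in the class that held them. Gzma, a tryptase of natural killer and memory T cells, was concentrated in NK-like cells, at 976 CPM (815 to 1159) in the WT-labelled library and 3450 CPM (2858 to 4128) in the dKO-labelled library, where 119 UMIs came from 3 cells. In conventional T cells Gzma was at 35.2 CPM (32.2 to 38.4) and 8.56 CPM (7.05 to 10.3). Gzmb, which activates caspases, was found in NK-like cells at 416 CPM (313 to 542) and 551 CPM (332 to 860), in iNKT cells at 270.3 CPM (190.3 to 372) and 440 CPM (334 to 569), and in Foxp3+ cells at 236 CPM (211 to 263) and 289 CPM (276 to 302). The Gzmb intervals of iNKT and Foxp3+ cells overlapped in the WT-labelled library and did not in the dKO-labelled library. Conventional T cells had less Gzmb, 49.8 CPM (46.3 to 53.6) and 190 CPM (182 to 197).

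Gzmk, a tryptase like Gzma, was found with it in conventional T cells but hardly seen in NK-like cells. NK-like cells held 2 Gzmk UMIs in the WT-labelled library, too few to place them below conventional cells there. They held 0 in the dKO-labelled library, where the floor of 3 UMIs allows up to 87.0 CPM. The highest levels among the classes were in conventional T cells, at 32.9 CPM (30.0 to 36.0) and 158 CPM (151 to 165), and within them in the cells with Ifng alone (40.3 CPM, 33.8 to 47.6, and 273 CPM, 244 to 304) and in cycling cells (40.6 and 283 CPM). Foxp3+ cells had 17.5 CPM (11.2 to 26.05) and 36.3 CPM (31.9 to 41.2). Naive-like conventional cells had 16.4 and 34.1 CPM.

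Ctsw and Fasl followed the Ifng-producing and innate-like cells. Ctsw stood at 1157 CPM (981 to 1356) and 812 CPM (539 to 1173) in NK-like cells, 584 CPM (463 to 727) and 759 CPM (618 to 924) in iNKT cells, 321 CPM (312 to 331) and 223 CPM (215 to 231) in conventional T cells, and 141 CPM (122 to 162) and 200 CPM (189 to 211) in Foxp3+ cells. Fasl stood at 310.2 CPM (223 to 421) in the NK-like cells of the WT-labelled library and at 115 CPM (110 to 121) and 52.9 CPM (49.0 to 57.0) in conventional T cells. Foxp3+ cells had 53.3 CPM (41.7 to 67.0) and 12.9 CPM (10.3 to 15.9) of Fasl, and iNKT cells 161 CPM (101 to 243) and 159 CPM (98.7 to 244). Conventional cells with Ifng alone had more Fasl than the naive-like ones in both libraries, 170 against 53.1 CPM and 116 against 28.9 CPM. The few cells with a Cd8b1 UMI (117 and 316) had Gzmb at 135 and 327 CPM and Gzmk at 18.95 and 67.3 CPM. Cd8a was at 0 in those of the WT-labelled library, and their Treg marker list stood at 1605 and 5064 CPM, so they are named here by the gate and not as CD8+ T cells.

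**Figure D1:**
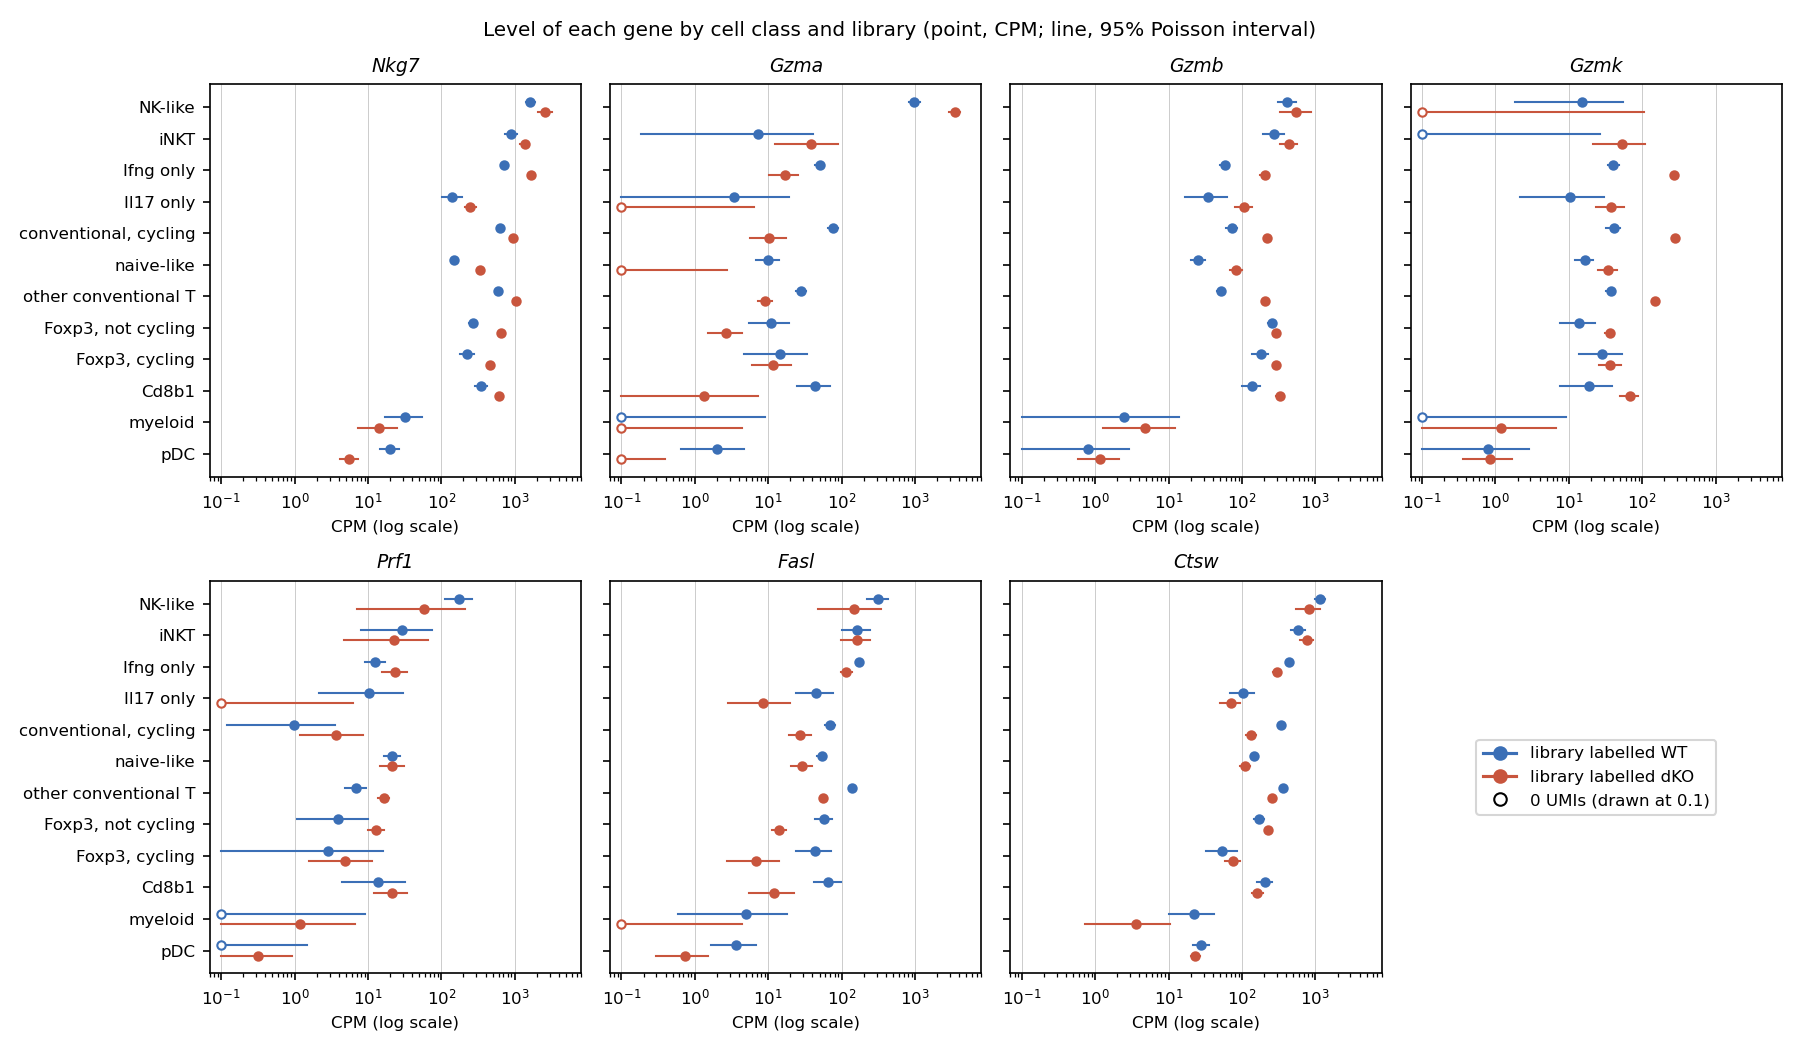
Level of each gene (CPM, log axis) in 12 cell classes of the 2 libraries, with exact 95% Poisson intervals, where an open point marks a class with 0 UMIs. Nkg7 and Gzma are highest in NK-like cells in both libraries, whereas Gzmk is at 15.1 and 0 CPM there.

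Foxp3+ cells were compared with conventional T cells inside each library. Gzmb was the member that was higher in Foxp3+ cells in both, by 2.24 on the log2 scale (2.05 to 2.43) in the WT-labelled library and by 0.61 (0.52 to 0.69) in the dKO-labelled library. The other 6 were lower in Foxp3+ cells in both libraries. Gzma and Fasl were at least 2-fold lower in both, with log2 ratios of −1.59 (−2.41 to −0.88) and −1.08 (−1.74 to −0.46) for Gzma and −1.11 (−1.47 to −0.77) and −2.04 (−2.38 to −1.71) for Fasl. Of 11509 genes with enough UMIs, 0.964% were at least 2-fold lower in both libraries and 0.539% at least 2-fold higher, so 2 of 7 members lower compares with a background of about 1 in 100 genes. Nkg7 had ratios of −1.01 and −0.66, Prf1 −1.55 (from 5 UMIs in Foxp3+ cells) and −0.40, and Ctsw −1.19 and −0.16. Gzmk was lower by −0.91 (−1.57 to −0.32) and −2.12 (−2.32 to −1.93). The median ratio of the members was −1.11 and −0.66, against 0.04 in each library over all genes tested. With doublets removed the ratios in the dKO-labelled library were −3.30 for Gzma, −2.82 for Gzmk and −3.08 for Fasl.

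The Gzmb ratio was smaller in the dKO-labelled library, whose conventional class carried more of the Treg markers. With conventional cells that had an Ikzf2 or Ctla4 UMI left out, an alternative chosen after seeing the data, the Gzmb ratio was 2.70 and 1.71. It was thus larger than with all conventional cells in both libraries (2.24 and 0.61), and still smaller in the dKO-labelled one. The part of these cells in the difference was not tested. In shares of cells thinned to 1000 UMIs, which set the depths equal, a Gzmb UMI was found in 11.9% and 16.7% of Foxp3+ cells (18.9% and 22.5% unthinned) and in 2.53% and 10.1% of conventional cells (4.43% and 12.5%), against 0 in thinned myeloid cells of either library. Before thinning the median depth was 2252 and 1624 UMIs in Foxp3+ cells and 1788 and 1349 in conventional cells, and thinning left out 45 and 497, and 800 and 1747 cells.

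Within Foxp3+ cells the shares at 1000 UMIs were also read by other transcripts, as a description and from a separate random thinning of the cells, so that they do not add up exactly to the shares above. By a UMI of Klrg1, a receptor gene of terminally differentiated effector cells, Gzmb was at 21.1% (18.4 to 24.0) with and 13.8% (12.2 to 15.5) without in the dKO-labelled library, and at 20.5% (12.4 to 30.8) and 9.45% (6.51 to 13.1) in the WT-labelled one, where the intervals overlap. By a UMI of Il1rl1, which encodes the interleukin 33 receptor ST2 of tissue Tregs, Nkg7 was at 8.72% (4.73 to 14.5) with and 32.1% (30.2 to 33.9) without in the dKO-labelled library. The WT-labelled shares were 4.44% (0.543 to 15.1, from 2 of 45 cells) and 18.3% (14.5 to 22.7), with overlapping intervals. Gzmb was at 15.4% with and 16.2% without Il1rl1 in the dKO-labelled library. By a UMI of Areg, a growth factor gene of tissue repair, Gzmb was at 16.4% with and 16.03% without in the dKO-labelled library, and at 18.3% (11.9 to 26.1) and 8.77% (5.76 to 12.7) in the WT-labelled one, where the intervals overlap. By an Il10 UMI, Nkg7 was at 44.0% (39.0 to 49.2) with and 28.4% (26.6 to 30.3) without in the dKO-labelled library, and at 8.33% (1 of 12 cells) and 17.0% (13.5 to 21.1) in the WT-labelled one, which goes the other way from 1 cell. Cycling Foxp3+ cells had Gzmb at 179 and 295 CPM and the others at 255 and 288 CPM.

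All 7 members were at least 2-fold lower in pDCs than in conventional T cells in both libraries, where 18.3% of 11873 genes were and 12.3% were higher. The pDCs were identified by Siglech, and their marker list stood at 15202 and 14799 CPM against 204 and 328 CPM in conventional cells. Gzmb, which human pDCs are known to express, was at 0.796 and 1.16 CPM in these mouse pDCs, 62.6-fold (17.3 to 518) and 163-fold (90.9 to 327) lower than in conventional T cells. Gzma had 0 UMIs in the pDCs of the dKO-labelled library, at least 27.0-fold lower against a floor of 3 UMIs (21.6-fold by the exact interval), and Prf1 had 0 in those of the WT-labelled library, at least 8.96-fold lower (7.20-fold by the exact interval).

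Ctsw was at 27.8 CPM (21.7 to 35.2) and 23.2 CPM (20.2 to 26.5) in pDCs, 11.5-fold and 9.60-fold lower than in conventional cells. In the dKO-labelled library Ctsw stood nearer to the T cell level than the other members. In the WT-labelled library this order was not resolved, since Prf1 had 0 UMIs and Gzma was 17.7-fold lower (7.53 to 54.7) from 5 UMIs. A thinned cell held a Ctsw UMI in 2.90% and 2.27% of pDCs and in 3.45% and 0.410% of myeloid cells, so it exceeded that background in the dKO-labelled library alone. Nkg7 was in 2.42% and 0.357% of thinned pDCs against 3.45% and 2.05% of thinned myeloid cells, at or below background in both. Of 30 other genes of the pathway, 16 were at least 2-fold lower in pDCs in both libraries, beside 18.3% of all genes, and 4 were higher, a share near the 12.3% of all genes. These 4 were Ctsc, the protease that activates granzyme precursors (180 against 52.5 and 196 against 64.2 CPM), the lysosomal protein Lamp1, the NK receptor gene Klrd1 and the transcription factor gene Zeb2.

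The libraries were then compared within a class. In conventional T cells Gzmb and Gzmk were higher in the dKO-labelled library, by 1.93 (1.81 to 2.05) and 2.26 (2.12 to 2.41) on the log2 scale, while Gzma and Fasl were lower, by −2.04 (−2.35 to −1.74) and −1.12 (−1.25 to −0.99). The Gzmk UMIs were unevenly spread over receptors. In the dKO-labelled library 5 receptor families, set apart below for high Gzmk, were 4.93% of cells with a TRB chain. They held 61.4% of the Gzmk UMIs of those cells, and 1 such family held 12.8% in the WT-labelled library. The Gzmk ratio without these families was not computed. Of 12808 genes 5.89% were at least 2-fold higher and 5.08% at least 2-fold lower, so 2 of 7 in each direction compares with about 1 in 20. Nkg7 was higher by 0.92 (0.88 to 0.96) and Prf1 by 0.53 (0.22 to 0.84), and Ctsw was lower, at −0.53 (−0.60 to −0.46). NK-like cells, where Gzma was highest, were 0.654% and 0.0916% of the libraries, and in conventional cells the NK markers Ncr1 (4.97 and 1.53 CPM) and Klrb1c (11.6 and 8.10 CPM) were lower in the dKO-labelled library as Gzma was, while the whole NK list of 5 genes, which includes Eomes, stood at 23.6 and 44.2 CPM. With a TRB contig required the Gzma ratio was −1.99 (−2.45 to −1.55), and the part of NK cell RNA in it was not tested.

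Gzmb was higher in the dKO-labelled library in each of the 5 conventional subsets compared, by 1.62 (1.33 to 1.92) in cycling cells, 1.63 (0.65 to 2.76) in cells with Il17 alone, 1.71 (1.29 to 2.14) in naive-like cells, 1.81 (1.53 to 2.09) in cells with Ifng alone and 1.98 (1.80 to 2.16) in the others. The few cells with both Ifng and Il17 (26 and 8) were not compared. The Gzmk values ran from 1.06 in naive-like cells to 2.76 in cells with Ifng alone and 2.80 in cycling cells. Fasl was lower by −0.55 in cells with Ifng alone and −2.38 in cells with Il17 alone. Without the cells that held Ikzf2 or Ctla4, the log2 ratios were 0.66 for Nkg7, 1.29 for Gzmb, 2.57 for Gzmk and −0.47 for Fasl, and Prf1 was then lower in the dKO-labelled library, at −0.31. Prf1 was at 0.01 (−0.51 to 0.51) when a TRB contig was required.

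In Foxp3+ cells Nkg7 (1.27, 1.11 to 1.43), Gzmk (1.05, 0.45 to 1.72) and Prf1 (1.68, 0.40 to 3.35) were higher in the dKO-labelled library, and Fasl (−2.04, −2.51 to −1.57) and Gzma (−1.53, −2.47 to −0.54) were lower. The NK list stood at 28.4 and 7.96 CPM in Foxp3+ cells, with Ncr1 at 9.48 and 0.450 CPM, Klrb1c at 4.38 and 1.65 CPM, and Klra4 and Klra8 at 0 in the dKO-labelled library. With a TRB contig required, Gzma was at −1.74 (−3.05 to −0.42) there. The background in 10745 genes was 5.68% at least 2-fold higher and 5.56% at least 2-fold lower. Gzmb differed by 0.30 (0.12 to 0.47), and by 0.01 when a Foxp3+ cell needed 2 UMIs. With doublets removed Gzma was at −4.03, Fasl at −2.98 and Gzmk at 0.58 (−0.16 to 1.41). Ctsw was higher in the dKO-labelled library in Foxp3+ cells, at 0.51 (0.29 to 0.73), against the direction in conventional cells. The members' median ratio was 0.51 in Foxp3+ and 0.53 in conventional cells, against −0.01 and −0.03 over all genes.

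**Figure D2:**
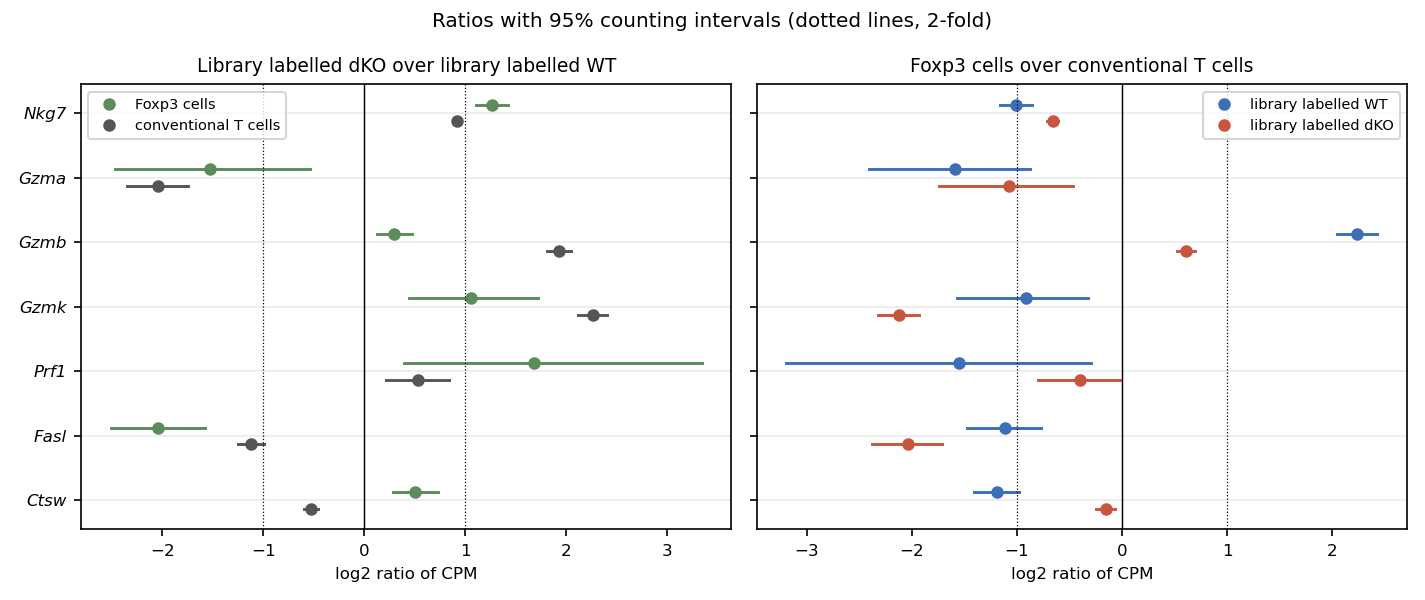
Log2 ratio of each gene with its exact 95% conditional interval, on the left between the libraries in Foxp3+ and conventional cells and on the right between Foxp3+ and conventional cells of each library, with dotted lines at 2-fold. Gzmb lies above 0 on the right in both libraries, and Ctsw lies on opposite sides of 0 on the left, at 0.51 and −0.53.

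Other genes of the granule and death receptor pathways were taken from a list of 36. Those higher by 2-fold or more in conventional cells of the dKO-labelled library were 6 of 31 measured, beside 5.89% of all genes, namely the cystatin Cst7 (42.7 and 184 CPM, log2 ratio 2.11), the SNARE protein Stx11 (1.37), the chemokine Ccl5 (1754 and 8355 CPM, 2.25), the transcription factor genes Eomes (6.21 and 34.4 CPM, 2.47) and Prdm1 (1.29), and Hopx (1.68). The 3 lower, beside 5.08% of all genes, were Ifng (272 and 104 CPM, −1.38), the activating receptor gene Klrk1 (−1.03) and Slamf7 (−1.02). In Foxp3+ cells 3 of 30 were higher, beside 5.68% of all genes, Cst7 (2.21), Ccl5 (898 and 4116 CPM, 2.20) and Eomes, and 6 were lower, beside 5.56%, Gzmc, Lta, Ifng, Klrk1, Klrd1 and Slamf7. The granule proteoglycan gene Srgn differed by 0.46 in Foxp3+ and 0.79 in conventional cells, and Ctsc by 0.01 and 0.29. The granzyme inhibitor genes Serpinb9 (−0.26 and −0.13) and Serpinb6b (−0.33 and −0.42) were slightly lower, and Gzmc (−2.001 and −0.97) was lower, with 14 UMIs in Foxp3+ cells of the WT-labelled library and 17 in those of the dKO-labelled library. Gzmm, at 1.31 and 1.07 CPM in conventional cells, was close to the limit of detection.

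Between Foxp3+ and conventional cells, 4 of 30 pathway genes were at least 2-fold lower in both libraries, Ifng, Klrk1, Klrd1 and Eomes, and 0 were higher, beside 0.964% and 0.539% of all genes. Srgn was 2474 against 1645 CPM in the WT-labelled library and 3406 against 2843 CPM in the dKO-labelled library. Serpinb9, which protects a cell from its own granzyme B, was lower in Foxp3+ cells, at 52.5 against 93.8 CPM and 44.0 against 85.8 CPM, where Gzmb was higher.

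Clone size was read from cells with 1 TRA and 1 TRB chain (1903 and 2265 cells), and clones of 5 or more cells were called expanded. In conventional cells of the WT-labelled library, Nkg7 was at 346 CPM (322 to 370) in single cells, 715 (655 to 778) in clones of 2 to 4, 764 (703 to 830.3) in clones of 5 to 19 and 743 (670.0 to 821) in clones of 20 or more. The dKO-labelled values were 464 (428 to 502), 743 (671 to 821), 2118 (1972 to 2273) and 1902 (1780 to 2030). Nkg7 was the member at least 2-fold higher in expanded than in single clones in both libraries, by 1.13 and 2.10 on the log2 scale, where 0.411% of 8033 genes were higher and 0.784% lower.

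The granzymes differed by library. Gzmk in conventional cells of the dKO-labelled library was at 50.4, 66.5, 442 and 314 CPM over the 4 clone sizes, with 63.8% of the UMIs at 20 or more cells in 1 clone, a ratio of 2.87 (2.49 to 3.28) between expanded and single clones, while in the WT-labelled library it was at 27.9, 65.3, 48.9 and 11.7 CPM (0.27, −0.32 to 0.85, and −0.24 without the clone with the most Gzmk UMIs). Gzmb was at 89.0, 131, 308.5 and 493 CPM in the dKO-labelled library (2.21, 1.91 to 2.52), and at 29.6, 68.0, 35.3 and 52.6 CPM in the WT-labelled library (0.52, −0.02 to 1.05, and −0.32 when TRB alone defined a clone). Gzma was higher in expanded clones of the WT-labelled library, at 12.9, 10.7, 175 and 91.6 CPM (3.45, 2.89 to 4.05). Of the 176 UMIs, 82 came from 5 of the 15 cells of 1 clone, and 28 from 2 of the 16 cells of another. The ratio was 2.59 (1.99 to 3.23) without the clone of 82 UMIs, a setting chosen after seeing the data, and 2.21 without cycling cells. There were 5 Gzma UMIs in expanded and 18 in single clones of the dKO-labelled library. With the Ikzf2 or Ctla4 cells left out, the expanded over single ratios were larger, 1.51 and 3.001 for Nkg7 and 1.69 (0.74 to 2.70) and 4.47 (3.21 to 6.01) for Gzmb, and no Gzmk UMI was left in single clones of the dKO-labelled library.

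Prf1 differed in direction between the libraries, lower in expanded clones of the WT-labelled library (−2.02, −3.72 to −0.68, 5 and 39 UMIs) and higher in those of the dKO-labelled library (1.85, 0.58 to 3.26, 18 and 8 UMIs). Fasl was higher in both, by 0.84 (0.52 to 1.15) and 1.003 (0.45 to 1.56), and Ctsw by 1.08 (0.91 to 1.26) and 0.24 (−0.06 to 0.53). In Foxp3+ cells of the dKO-labelled library, Nkg7 was at 390, 520, 824 and 849 CPM, and Nkg7 and Gzmk were the 2 of 4 measured members at least 2-fold higher, Nkg7 at 2.14-fold (1.86 to 2.47) and Gzmk at a log2 ratio of 1.70 (0.67 to 2.82). The Gzmk ratio rests on 27 and 12 UMIs, of which 15 came from 3 Foxp3+ cells of 1 clone, and without that clone it was 0.57 (−0.72 to 1.85). There 2.37% of 7219 genes were higher and 3.38% lower. Gzmb was at 241, 199, 405 and 399.9 CPM in these Foxp3+ cells (0.74, 0.47 to 1.02), and at 0.08 when cycling cells were left out. Of the other pathway genes, Ccl5 and Zeb2 were at least 2-fold higher in expanded conventional clones of both libraries, Ccl5 at 932 and 2191 CPM in the WT-labelled library and at 2730 and 19030 CPM in the dKO-labelled library.

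**Figure D3:**
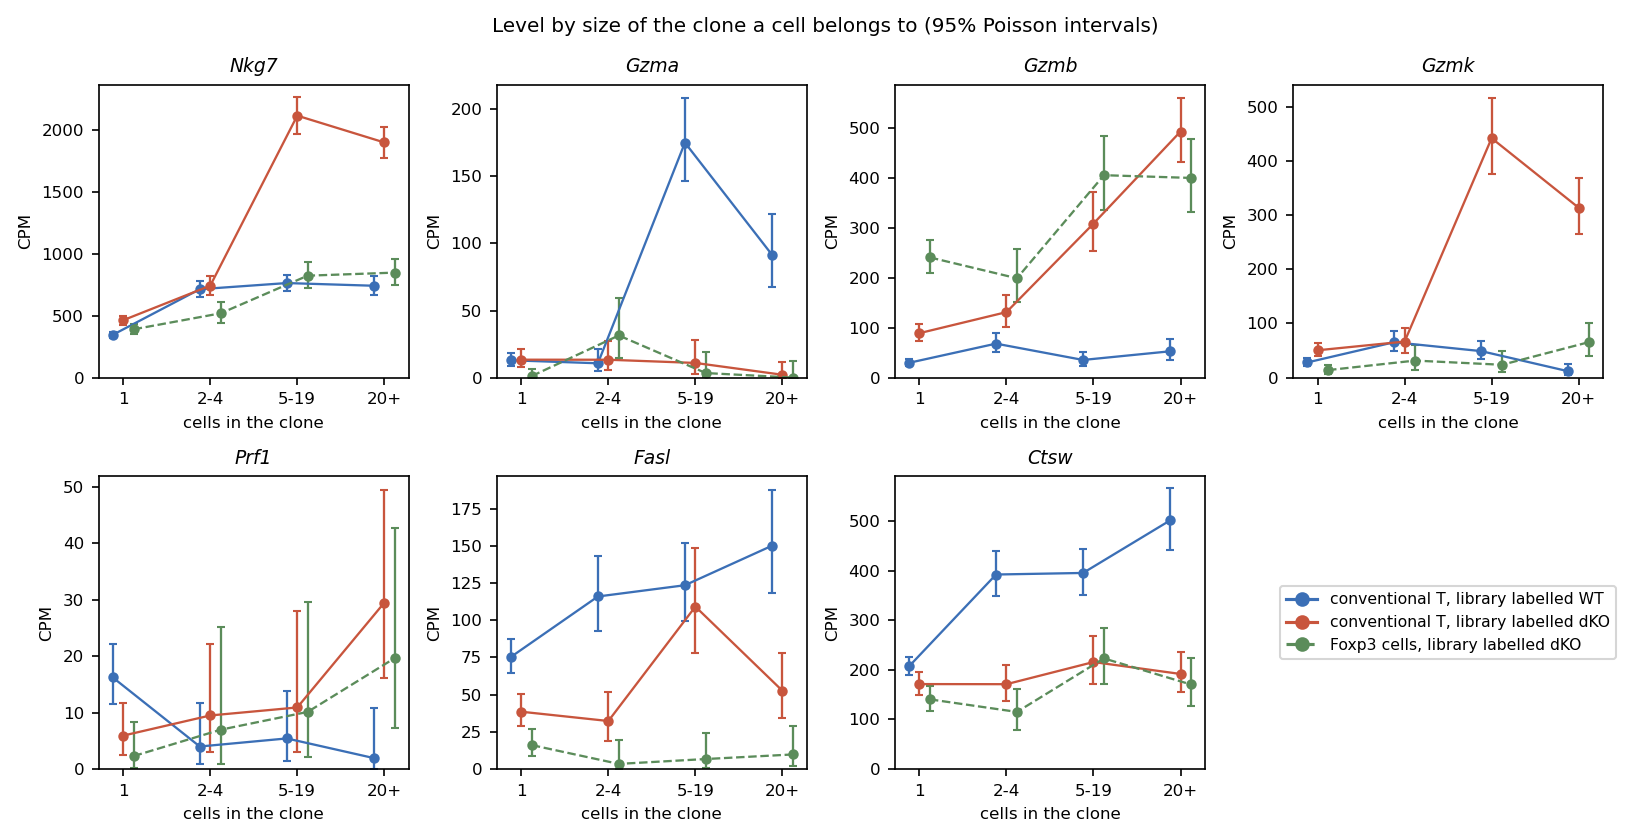
Level (CPM) of each gene by clone size (1, 2 to 4, 5 to 19, and 20 or more cells) in conventional cells of the 2 libraries and in Foxp3+ cells of the dKO-labelled library, with exact 95% Poisson intervals. Gzmk in dKO-labelled conventional cells goes from 50.4 CPM in single cells to 442 CPM at 5 to 19 cells, and Gzma in WT-labelled conventional cells from 12.9 to 175 CPM.

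Clones that hold a Foxp3+ cell separated Gzmb from Gzmk in the dKO-labelled library. Conventional cells whose clone also held a Foxp3+ cell (416 cells of 80 clones) had Gzmb at 419 CPM and Gzmk at 160.0 CPM, but 95 of their 119 Gzmk UMIs came from 29 cells of 1 clone, and without it Gzmk was at 36.6 CPM (23.4 to 54.4). Conventional cells of clones of 2 or more cells without one (285 cells of 89 clones) had Gzmb at 167 CPM and Gzmk at 364 CPM. Leaving out the clone with the most UMIs of the gene, a setting chosen after seeing the data, gave Gzmb at 399 CPM with a Foxp3+ cell in the clone, and Gzmb at 126 and Gzmk at 278 CPM without one. The Foxp3+ cells with a clone (646) had Gzmb at 289 and Gzmk at 27.3 CPM. Gzmb was thus higher, and Gzmk lower, in the conventional cells that shared both receptor chains with a Foxp3+ cell, and a Foxp3+ cell whose transcript was missed would be counted among them. The Gzmk order depends on defining a clone by both chains. The clones with the most Gzmk UMIs on either side (95 with a Foxp3+ cell, 66 without) had the same TRB sequence and different TRA chains. A split by TRB alone was not made. In the WT-labelled library the same split gave Gzmb at 47.0 and 53.0 CPM and Gzma at 5.88 and 110 CPM (154 cells of 17 clones and 585 cells of 122 clones). There 11 of the 16 Gzmb UMIs of clones with a Foxp3+ cell came from 1 clone with 2 conventional cells. Without the top clone Gzmb was at 14.8 CPM (4.82 to 34.6) against 48.7 CPM (38.0 to 61.5), the opposite order to the dKO-labelled library. Gzma was at 61.9 CPM without the top clone in the clones with no Foxp3+ cell.

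In the dKO-labelled library most Gzmk UMIs of cells with a TRB chain lay in a few receptor families. Cells that share a TRB sequence were taken as a family, and 29 families in the WT-labelled library and 27 in the dKO-labelled library had 10 or more cells. After their values were seen, 6 of these 56 were set apart because Gzmk was above 500 CPM, and they are described without a test. Their Gzmk ranged from 842 to 1412 CPM, against 0 to 133 CPM (median 14.8) in the other 50. The nucleotide sequences of their CDR3, the part of the TRB chain that touches antigen most directly, are shown because Gzmk was carried by these receptors, with capitals for the codons of the residues that bound the CDR3:
WT-B24: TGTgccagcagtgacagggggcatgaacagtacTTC
dKO-B4: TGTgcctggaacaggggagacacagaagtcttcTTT
dKO-B5: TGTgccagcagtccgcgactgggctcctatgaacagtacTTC
dKO-B12: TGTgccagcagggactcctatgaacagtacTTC
dKO-B14: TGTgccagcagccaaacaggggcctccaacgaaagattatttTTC
dKO-B23: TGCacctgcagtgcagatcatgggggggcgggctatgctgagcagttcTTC
They used 5 TRBV genes, TRBV13-3 in WT-B24 and dKO-B12, TRBV31 in dKO-B4, TRBV19 in dKO-B5, TRBV5 in dKO-B14 and TRBV1 in dKO-B23. Family dKO-B5 had 64 cells, 63 of them with a Gzmk UMI, and stood at 1407 CPM of Gzmk, 935 CPM of Gzmb and 294 CPM of Eomes. Family dKO-B14 had 19 cells, 1345 CPM of Gzmk and no Gzmb UMI, so Gzmk came with and without Gzmb. Family WT-B24, of 12 cells, stood at 1277 CPM of Gzmk from 34 UMIs in 11 cells. All 6 had Cd4 transcripts (300.4 to 2189 CPM) and Eomes, a transcription factor gene of memory and cytotoxic cells, at 182 to 365 CPM, where the other 50 families had 0 to 51.0 CPM. Ctsw was at 66.3 to 141 CPM in the 6 and at 0 to 784 CPM (median 350.2) in the others, of which 28 came from the WT-labelled library, where the family median was higher (432 CPM). Nkg7 was at 2028 to 5403 CPM in the 6 and at 0 to 2381 CPM in the others. In the dKO-labelled library, the 182 cells of 5 such families were 4.93% of cells with a TRB chain and held 61.4% of their Gzmk UMIs, 27.4% of Nkg7, 14.0% of Gzmb and 2.59% of Ctsw. In the WT-labelled library the top 5 families held 27.4% of the Gzmk UMIs and WT-B24 held 12.8%, against 61.4% in the top 5 of the dKO-labelled library. The number of families with a Gzmk UMI was similar, 121 of 1877 and 126 of 1830.

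Gzma was at 0 to 14.0 CPM in those 6, and Gzmb was found in families of both kinds, with a median of 185 CPM in the 6 and 59.4 CPM in the other 50. The WT-labelled library, where the Gzmb family median was 27.9 CPM, gave 1 of the 6 and 28 of the 50. Of the Gzma UMIs in TRB families of the WT-labelled library, the 5 top families held 59.5%, and a Gzma UMI was found in 47 of 1877 families. The largest Gzma values were in WT-B13, of 22 cells, at 1586 CPM with 90 UMIs from 6 cells, and in WT-B9, of 26 cells, with 30 UMIs from 3 cells, so within a family few cells carried the gene. For families, Foxp3+ means any cell with a Foxp3 UMI. The highest Gzmb was in dKO-B18, where 8 of 13 cells were Foxp3+, at 1238 CPM with 79.9 CPM of Nkg7 and no Ctsw UMI. The largest family, dKO-B1, had 426 cells, of which 36.6% were Foxp3+, with Gzmb at 400.3 CPM and Gzmk at 19.9 CPM. The CDR3 of these families are shown beside those above for comparison:
WT-B13: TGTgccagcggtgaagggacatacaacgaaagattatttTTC
WT-B9: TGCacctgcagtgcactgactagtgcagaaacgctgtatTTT
dKO-B18: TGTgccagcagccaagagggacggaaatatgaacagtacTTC
dKO-B1: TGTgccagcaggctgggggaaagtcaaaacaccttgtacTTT
At least 25% of cells were Foxp3+ in 17 of the 27 families of the dKO-labelled library and in 0 of the 29 of the WT-labelled library. In those 17, a split made after the values were seen, Gzmk had a median of 41.1 CPM and a maximum of 133 CPM, and Gzmb a median of 196 CPM. In the other 10 the medians were 482 CPM for Gzmk and 216 CPM for Gzmb, and Gzmk was at 842 CPM or more in 5 families and at 121 CPM or less in 5. The 29 families of the WT-labelled library, with few Foxp3+ cells, had a Gzmk median of 8.98 CPM, so a low Foxp3+ share did not by itself go with high Gzmk.

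**Figure D4:**
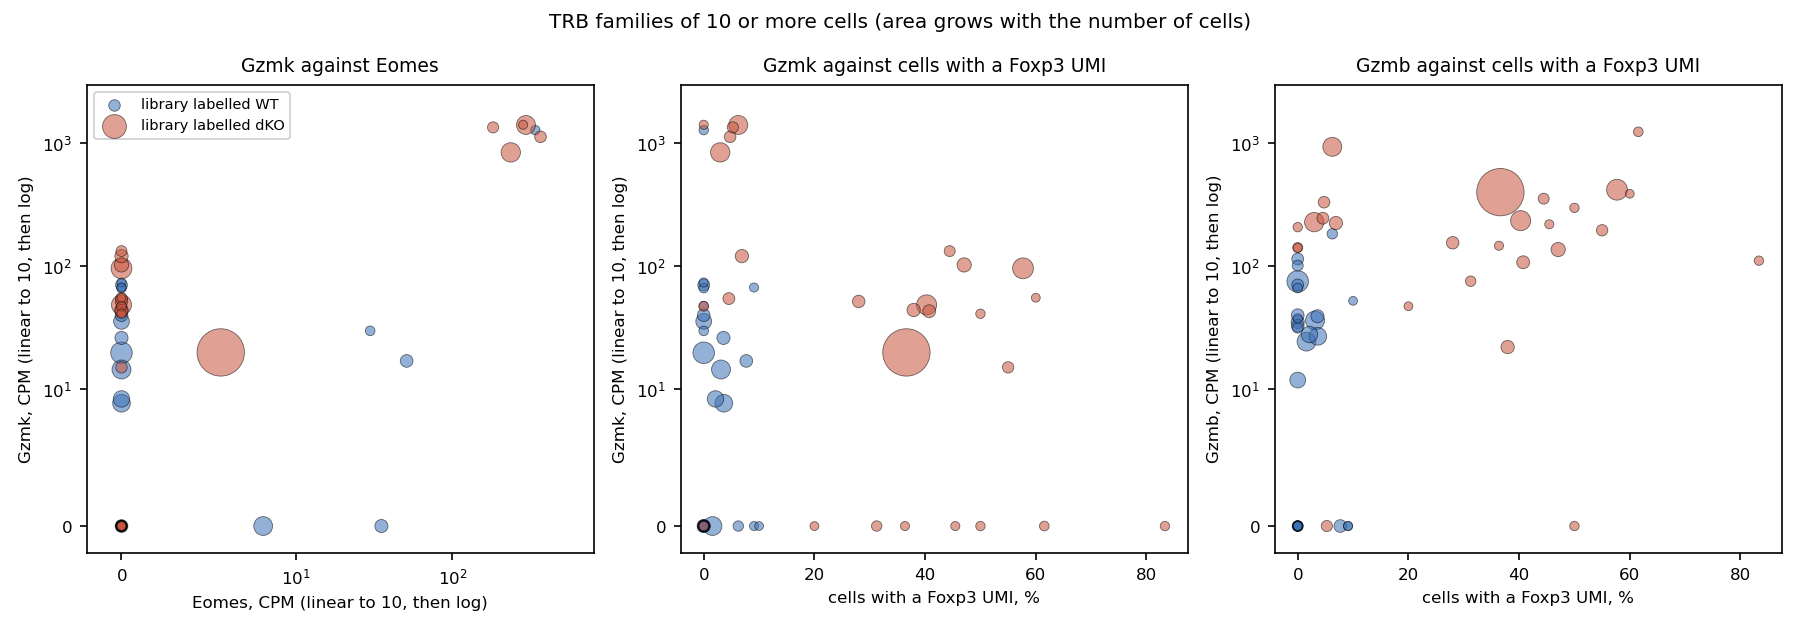
Each point is 1 of 56 TRB families of 10 or more cells, with Gzmk (CPM) against Eomes (CPM), Gzmk against the percentage of Foxp3+ cells, and Gzmb against that percentage, with CPM axes that are linear to 10 CPM and logarithmic beyond and point areas that grow with the number of cells. The 6 families with Gzmk of 842 to 1412 CPM are those with Eomes of 182 to 365 CPM.

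Single conventional cells were also compared at 1000 UMIs per cell, in splits made after the family values were seen. In the dKO-labelled library a Gzmk UMI was found in 67.4% (60.1 to 74.2, exact binomial) of 181 cells with an Eomes UMI and in 7.41% of 6032 without. The WT-labelled shares were 6 of 30 and 2.62% of 5693. Among 569 cells with Gzmk in the dKO-labelled library, Nkg7 was found in 87.0% against 32.1% of the rest, Gzmb in 24.1% against 8.66%, and Ctsw in 13.5% against 18.6%. At 2000 UMIs the Ctsw order turned, to 33.1% (27.4 to 39.2) against 26.8% (24.5 to 29.1), and those of Nkg7 (96.5% against 40.96%) and Gzmb (41.2% against 14.2%) did not. The 155 cells with Gzmk in the WT-labelled library had Ctsw in 36.1% against 24.0% (46.4% against 37.5% at 2000 UMIs) and Nkg7 in 58.1% against 29.7%. A Gzma UMI was found in 0.53% of cells with Gzmk and 0.39% of those without in the dKO-labelled library, and in 5.16% (2.25 to 9.92) and 1.47% (1.17 to 1.82) in the WT-labelled one.

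Over 19 points, each a class of at least 100 cells in 1 library, the genes whose log2(CPM + 10) was most like that of each member were listed as a description, since the points share libraries and depth. Gzmb was most like Tnfrsf4 (r = 0.963), Tnfrsf18 (0.963) and Dusp4 (0.951). Gzmk was most like Eomes (0.935), Ccl5 (0.893) and Nkg7 (0.885), and Nkg7 most like Sytl3 (0.959), Sh2d1a (0.953) and Gimap7 (0.945). Ctsw was closest to Tbx21 (0.957), Kcnq5 (0.942) and Gimap9 (0.941), and Fasl to Ppp3cc (0.935), Zfp36l2 (0.930) and Aak1 (0.922). The nearest genes to Gzma (Dnajc15, Arsb and Hspa8, 0.845 to 0.833) and to Prf1 (Ubr1, Acot2 and Axin1, 0.832 to 0.821) were less alike. Among the members themselves Nkg7 was closest to Gzmk (0.885) and Ctsw (0.880), and Ctsw to Nkg7 and Fasl (0.876), while Prf1 and Gzma were the pair farthest apart (0.150), with Gzmb and Gzma next (0.276).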

How the data were processed

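Sorted hepatic CD4+ T cells were measured by droplet sequencing of 5′ RNA and TCR, 1 library per genotype. The authors deposited UMI counts per gene and cell made with Cell Ranger 7.0.1 (file header, mm10) and TCR contigs. Cells with over 200 genes and under 5% mitochondrial counts were kept. Classes were gated on fixed marker UMIs (T lineage by a contig or 2 Cd3 UMIs, pDC by 2 Siglech UMIs, Foxp3+ by 1). Cells with a Cd8b1 UMI or an iNKT receptor were classes of their own, whether or not they had Foxp3. Counts were summed per class and library and divided by the class total (counts per 1000000 UMIs, CPM). Levels carry exact Poisson intervals, ratios exact conditional binomial and shares Clopper-Pearson intervals, all 95%. Genes with 20 UMIs or more entered the counts past 2-fold, and some ratios below that limit are printed. With 1 library per group no test was possible. Doublets were called with Scrublet (scanpy 1.11.5), which marked 891 and 2439 cells, and were removed in an alternative only. The naming rule took pathway genes past 2-fold in both libraries with 100 CPM, and 7 granule genes always. All others named, such as Eomes and those past 2-fold between the libraries, were chosen after their values were seen. The 7 members and all lists were chosen with earlier results of these data known. Python 3.11.15, numpy 2.4.6, pandas 2.3.3, scipy 1.17.1, R 4.3.3 and edgeR 4.0.16 (TMM) were used. On simulated counts the ratio step recovered the genes changed. Promoters came from RefSeq GRCm38.p6 (6 of 7 matched, Ctsw named only).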

Additional observations from a re-analysis of the deposited data

Results flagged for a closer look

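Ctsw was higher in the library labelled dKO in Foxp3+ cells, with a log2 ratio of 0.51, and lower there in conventional T cells, with a log2 ratio of −0.53. It stands out because the 2 classes moved in opposite directions under the same contrast. Each class has 1 sample per library, so the difference between the classes was not tested.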

How the results depend on the processing

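With 1 library per group, depth and pooling limit every value, and no interval covers variation between mice. No paired analysis was possible because each group has 1 library and no test. With doublets removed, 1 member instead of 2 was at least 2-fold lower in the library labelled dKO in Foxp3+ cells, since Gzma, at −4.03, was then under the 20 UMI minimum. With a TRB contig required for T lineage cells, 1 member was lower in that library in conventional cells, with Fasl at −0.96. In Foxp3+ cells of that library, 1 member instead of 2 was 2-fold higher in expanded clones when Foxp3 needed 2 UMIs and when cycling cells were left out. Leaving out conventional cells with Ikzf2 or Ctla4, chosen after seeing the data, gave 1 member higher in Foxp3+ cells in both libraries (Gzmb), 1 lower in the library labelled dKO in conventional cells, and 3 higher in expanded clones. The Gzma ratio between expanded and single conventional clones of that library, −1.17 from 5 and 18 UMIs, became 0.17 without doublets, 2.30 without Ikzf2 or Ctla4 cells, and 0.0391 without clones holding a Foxp3+ cell. The last 2 have 0 UMIs on 1 side, set at the floor of 3, and give no direction. Of 73 results, 0 moved with all deposited cells, 1 with TMM scaling, 7 as a mean over cells, 22 with a TRB contig required, and 15 with doublets removed, where 1 more reversed. A value not counted as moved need not be unchanged, since TMM scaling gave shifts of −0.11 to 0.12 on the log2 scale. Of 72, 10 moved without cycling cells. Without Ikzf2 or Ctla4 cells 26 of 56 moved and 1 reversed. With cells thinned to 2000 instead of 1000 UMIs, 34 of 44 shares moved. Directions also turned for Fasl in expanded Foxp3+ clones of the library labelled dKO without doublets (−0.95 to 0.12), for Gzma there as a mean over cells (0.53 to −0.19, 1 UMI in each group), for Prf1 between Foxp3+ and conventional cells of that library without Ikzf2 or Ctla4 cells (−0.40 to 0.04), and for Ctsw in its expanded conventional clones without clones holding a Foxp3+ cell (0.24 to −0.32).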
